A study of Mus musculus with 12 samples.

Results

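The genes described here are 10 genes of the antioxidant defence governed by the transcription factor NRF2, namely Nfe2l2, Keap1, Nqo1, Gclc, Gclm, Hmox1, Txnrd1, Srxn1, Ugdh and Cat, out of 22093 gene names in the expression table. They were chosen by name, with earlier results of these data known. Their expression was summed over all transcripts that carried the name. All 10 were measured in every liver and passed the filter of a mean FPKM of 0.5 or more (fragments scaled for transcript length and library size), as did 11543 genes in all. The livers came from 12 male C57BL/6J mice aged 21 weeks, 3 in each of 4 groups, which had been fed for 16 weeks from an age of 5 weeks. The labels name no transgene or targeted allele. The ND group received a normal diet and the HFD group a high-fat diet. The CLE group received the high-fat diet with 1.5% (w/w) of an ethanol extract of Chrysanthemum morifolium leaves, and the LU group the high-fat diet with 0.003% (w/w) luteolin, a flavone. The high-fat diet was thus shared by HFD, CLE and LU mice, the 3 livers of a group were described as representative ones, and the extract was given at a single dose.

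NRF2, the product of Nfe2l2, is held at a low level in unstressed cells because KEAP1 binds it and presents it to a ubiquitin ligase for degradation. When electrophiles or oxidants modify KEAP1, NRF2 escapes, pairs with small MAF proteins and binds antioxidant response elements near its target genes. The targets rebuild glutathione and thioredoxin, reduce quinones, break down heme and supply the cofactors of conjugation, which makes the pathway prominent in hepatocytes. Because the control acts on the NRF2 protein, the mRNA of Nfe2l2 or Keap1 is not a measure of it.

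All 8 hepatocyte markers were measured, with a summed level between 11826 and 17494 FPKM in every liver. Albumin, however, was listed at 0 in 11 of the 12 livers, which can be a failed estimate. The adipocyte gene Lep was at 0.139 to 0.187 FPKM in the LU livers and listed at 0 in all others. Adipoq and Plin1 were highest in the LU livers, at no more than 0.759 FPKM. Cfd, also on the adipocyte list, was high in all groups on the high-fat diet. Its mean ± SD was 1.36 ± 0.41 FPKM in ND, 81.9 ± 22.4 in HFD, 94.3 ± 65.8 in CLE and 168 ± 96.8 in LU livers. The CLE and LU libraries stood apart from the ND and HFD libraries in their relation to GC content and their share of annotated transcripts. Whether this is technical or follows from the diets was not tested. Across 11400 genes, the deviation of a library from the mean of all libraries correlated with the GC content of the transcript by a Spearman rho of -0.37 to -0.14 in the 6 ND and HFD livers and of 0.16 to 0.48 in the 6 CLE and LU livers, as a description across genes. Over 10367 genes with both annotated and assembled transcripts, the median share of a gene's FPKM that was assigned to annotated transcripts was 78.3% to 79.0% in ND, 76.7% to 78.6% in HFD, 69.9% to 76.4% in CLE and 73.5% to 75.2% in LU livers. A score of clock genes was 0.35 to 3.21 in ND, -0.75 to 0.92 in HFD, -1.52 to -0.32 in CLE and -1.74 to -0.50 in LU livers, with 2 of the 3 ND livers above all others. The transcripts of Ugdh, Nqo1, Nfe2l2 and Gclc lay at percentiles 28.5, 31.2, 31.4 and 36.2 of GC content among these genes, and those of Hmox1, Srxn1, Gclm and Keap1 at 65.9, 66.0, 71.3 and 93.6. The part of these differences in the results below was not tested, except where a value with a correction is given. The number of reads behind each value is unknown.

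The stretches of DNA just before the start sites were searched for the core of the antioxidant response element, because these are the places where NRF2 could act close to each gene. RefSeq windows on GRCm38.p6, from 250 bases before to 50 bases after the start of a transcript, were at hand for 8 of the 10 genes, with 10 windows in all. Gclc and Hmox1 had none. The letters TGACNNNGC, read on both strands, stood in 1 window each of Nfe2l2, Gclm, Txnrd1, Srxn1 and Ugdh, and in 12.4% of all 32817 windows of the table. The related letters TGAGNNNGC stood in the window of Srxn1 and in 17.7% of all windows. Shown are the 250 bases before the start for the genes with a match there, and for Nqo1, the classic target, in which neither form was found. The first base of each match is given relative to the start. Capitals mark the matches, which appear as these letters where the strand of the gene carries them and as their reverse complement where the opposite strand does.
Nfe2l2 (chr2:75704664-75704913, minus strand): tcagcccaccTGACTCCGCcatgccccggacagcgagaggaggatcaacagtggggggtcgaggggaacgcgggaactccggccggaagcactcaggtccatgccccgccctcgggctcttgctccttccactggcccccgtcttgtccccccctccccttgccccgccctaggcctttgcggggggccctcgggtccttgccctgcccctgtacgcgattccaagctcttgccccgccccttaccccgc
Nqo1 (chr8:107403206-107403455, minus strand): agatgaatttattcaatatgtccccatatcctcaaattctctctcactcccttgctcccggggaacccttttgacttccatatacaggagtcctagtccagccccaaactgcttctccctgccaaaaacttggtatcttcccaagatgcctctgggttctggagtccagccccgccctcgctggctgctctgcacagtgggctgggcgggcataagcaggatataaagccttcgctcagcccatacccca
Gclm (chr3:122245307-122245556, plus strand): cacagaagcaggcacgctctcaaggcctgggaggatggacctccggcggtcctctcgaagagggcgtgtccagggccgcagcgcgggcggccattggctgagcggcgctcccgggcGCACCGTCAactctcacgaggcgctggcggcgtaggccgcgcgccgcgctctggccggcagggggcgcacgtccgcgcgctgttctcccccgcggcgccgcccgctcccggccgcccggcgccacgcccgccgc
Txnrd1 (chr10:82858956-82859205, plus strand): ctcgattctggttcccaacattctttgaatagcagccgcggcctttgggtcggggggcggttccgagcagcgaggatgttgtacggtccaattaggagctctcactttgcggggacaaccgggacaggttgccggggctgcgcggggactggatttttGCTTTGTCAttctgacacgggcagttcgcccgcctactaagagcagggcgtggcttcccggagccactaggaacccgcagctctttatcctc
Srxn1 (chr2:152105274-152105523, plus strand): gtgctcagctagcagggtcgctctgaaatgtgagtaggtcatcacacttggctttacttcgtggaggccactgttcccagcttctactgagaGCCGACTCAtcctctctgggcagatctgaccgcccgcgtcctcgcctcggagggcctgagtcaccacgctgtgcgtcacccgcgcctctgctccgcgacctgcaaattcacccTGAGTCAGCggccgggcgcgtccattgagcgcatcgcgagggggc
Ugdh (chr5:65435843-65436092, minus strand): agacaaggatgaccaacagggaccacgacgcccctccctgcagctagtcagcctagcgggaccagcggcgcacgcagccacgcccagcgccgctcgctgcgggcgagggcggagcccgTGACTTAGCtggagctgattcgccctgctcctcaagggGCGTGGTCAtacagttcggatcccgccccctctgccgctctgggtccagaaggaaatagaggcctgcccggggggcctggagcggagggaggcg

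Ugdh had a pair of matches, TGACTTAGC from base -132 on the strand of the gene and TGACCACGC from base -94 on the opposite strand. Nfe2l2 had TGACTCCGC from base -240 on its own strand, while Gclm had TGACGGTGC from base -134 and Txnrd1 TGACAAAGC from base -92, both on the opposite strand. The match of Txnrd1 lay in the window of its leading transcript, 1 of 3 windows of that gene. In Srxn1 the match TGAGTCAGC from base -45 overlapped the AP-1 letters TGANTCA at the same place, a second AP-1 match stood at base -102, TGAGTCGGC was read from base -158 on the opposite strand, and TGACCTAGC lay behind the start, from base 29. AP-1 letters stood in 7.81% of all windows. The letters TNGCGTG of the xenobiotic response element were found in none of the 10 windows and in 5.06% of all windows. The windows of Keap1 and Cat held neither form of the antioxidant element. A match describes letters in a window and not a bound site, and elements farther from the start were not searched.

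The first question was whether the high-fat diet changed these genes. In HFD livers, 5 of the 10 genes rose relative to ND livers, namely Nqo1, Ugdh, Gclc, Hmox1 and Nfe2l2, and none fell (limma, Benjamini-Hochberg adjusted p below 0.05 over all genes tested). Among all 11543 genes, 12.1% passed this test, 10% as higher and 2.13% as lower. The median log2 fold change was 0.47 for the 10 genes and 0.11 for all genes tested. Because whole livers were measured, more cells of a type and more RNA per cell cannot be told apart. Markers of other liver cells moved in the same direction. Of 6 stellate cell markers, Lrat, Col1a1, Col3a1 and Dcn were higher in HFD than in ND livers, and their summed level was 72.6 to 103 FPKM in ND and 128 to 162 in HFD livers. The part of these cells in the rise of the 5 genes was not tested. In 8 of the 10 genes, all but Keap1 and Txnrd1, every HFD liver was above every ND liver, as in 29% of all genes.

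**Figure D1:**
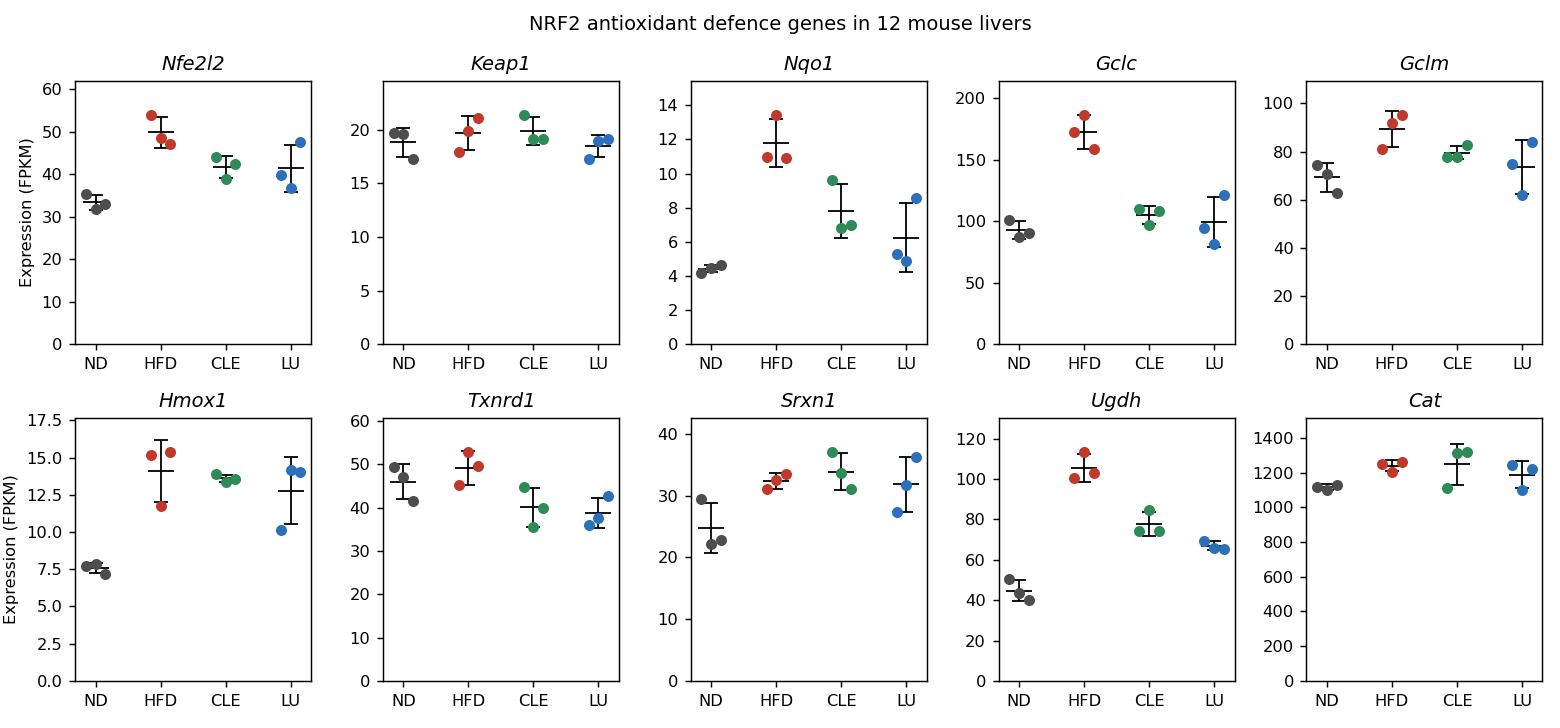
Expression of the 10 genes in FPKM (vertical axes, from 0) in ND, HFD, CLE and LU livers (horizontal axes). Points are single mice, and bars show the mean and SD of 3 mice. Nqo1, Gclc and Ugdh are high in the 3 HFD livers and lower in all CLE and LU livers, Hmox1 stays above the ND livers in all 3 high-fat groups, and Keap1 and Cat are nearly level.

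The regulators came first. Nfe2l2 (ENSMUSG00000015839, chr2:75675513-75704641 on GRCm38, minus strand) was at 35.3, 31.8 and 33.1 FPKM in the ND livers, 53.8, 48.5 and 47.1 in the HFD livers, 44.0, 38.8 and 42.3 in the CLE livers, and 39.7, 36.8 and 47.5 in the LU livers. Every HFD, CLE and LU liver was above the highest ND liver, and the CLE livers all lay between the ND and the HFD livers. Nfe2l2 rose by 0.56 ± 0.11 (log2 fold change ± SE) in HFD against ND livers, with a limma adjusted p of 0.0067. It was past the threshold under all 19 alternative settings tried, between 0.41 and 0.70. Keap1 (ENSMUSG00000003308, chr9:21229730-21239361, minus strand), which encodes the repressor of NRF2, had group means ± SD of 18.8 ± 1.38 in ND, 19.6 ± 1.59 in HFD, 19.9 ± 1.26 in CLE and 18.5 ± 1.04 FPKM in LU livers. The groups overlapped in all comparisons, and HFD and ND livers differed by 0.06 on the log2 scale with a 95% interval of -0.16 to 0.28.

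Gclc and Gclm encode the catalytic and the modifier subunit of glutamate-cysteine ligase, which makes the first and limiting step of glutathione synthesis. Gclc (ENSMUSG00000032350, chr9:77754535-77794485, plus strand) was at 101, 87.2 and 90.2 FPKM in ND livers, 172, 186 and 158 in HFD livers, 110, 97.0 and 108 in CLE livers, and 94.6, 81.9 and 121 in LU livers. The 3 HFD livers stood well above the other 9, which overlapped with each other. Gclc rose by 0.88 ± 0.14 on the log2 scale in HFD against ND livers, with a limma adjusted p of 0.0015. Gclm (ENSMUSG00000028124, chr3:122245557-122270732, plus strand) was at 74.4, 70.7 and 62.7 FPKM in ND livers, 81.1, 92.0 and 95.02 in HFD livers, 77.8, 77.9 and 82.6 in CLE livers, and 74.7, 61.8 and 84.0 in LU livers. The ND and HFD livers did not overlap, but the difference of 0.36 ± 0.12 missed the threshold (limma adjusted p = 0.072). The subunits thus differed in the size of their estimates, and the difference between them was not tested.

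Txnrd1 and Srxn1 serve the thiol system of the cytosol. Thioredoxin reductase 1, made by Txnrd1, passes electrons from NADPH to thioredoxin, and sulfiredoxin, made by Srxn1, restores peroxiredoxins that hydrogen peroxide has overoxidised. Txnrd1 (ENSMUSG00000020250, chr10:82833951-82897712, plus strand) was at 49.2, 47.1 and 41.5 FPKM in ND livers, 45.1, 52.8 and 49.6 in HFD livers, 44.6, 35.6 and 39.9 in CLE livers, and 35.9, 37.5 and 42.6 in LU livers. The ND and HFD livers overlapped, and their log2 difference was 0.10 with a 95% interval of -0.16 to 0.35. Srxn1 (ENSMUSG00000032802, chr2:152105516-152111376, plus strand) was at 29.5, 22.2 and 22.8 FPKM in ND livers, 31.1, 32.5 and 33.6 in HFD livers, 37.1, 33.6 and 31.1 in CLE livers, and 27.4, 31.8 and 36.3 in LU livers. The ND liver at 29.5 FPKM was within the range of the LU livers, and the difference of HFD against ND was 0.38 ± 0.13 with a limma adjusted p of 0.081.

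Nqo1 encodes a quinone reductase that transfers electrons in pairs and so avoids reactive semiquinones. Nqo1 (ENSMUSG00000003849, chr8:107388225-107403206, minus strand) was the lowest of the 10 genes, at 4.2, 4.48 and 4.63 FPKM in ND livers, 10.99, 13.41 and 10.94 in HFD livers, 9.63, 6.80 and 7.001 in CLE livers, and 5.31, 4.87 and 8.56 in LU livers. All HFD livers were above all others, and all ND livers were below all others. Nqo1 rose by 1.23 ± 0.18 on the log2 scale in HFD against ND livers (limma adjusted p = 9.9e-04), and was past the threshold under all 19 alternative settings, between 1.08 and 1.46. Ugdh encodes UDP-glucose dehydrogenase, which makes the UDP-glucuronate used by glucuronidation. Ugdh (ENSMUSG00000029201, chr5:65413221-65435949, minus strand) was at 50.5, 43.7 and 39.9 FPKM in ND livers, 100.4, 113 and 103 in HFD livers, 74.4, 84.8 and 74.4 in CLE livers, and 69.6, 65.9 and 65.4 in LU livers. The 4 groups did not overlap and ran in the order ND, LU, CLE and HFD. Ugdh rose by 1.23 ± 0.11 in HFD against ND livers, with the smallest limma adjusted p of the 10 genes at 3.1e-05.

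Hmox1 encodes heme oxygenase 1, which opens heme to biliverdin, iron and carbon monoxide. Hmox1 (ENSMUSG00000005413, chr8:75093621-75100589, plus strand) was at 7.72, 7.88 and 7.21 FPKM in ND livers, 15.2, 11.7 and 15.4 in HFD livers, 13.9, 13.4 and 13.6 in CLE livers, and 10.2, 14.2 and 14.1 in LU livers. All 9 livers on the high-fat diet were above all ND livers, and among those 9 the groups overlapped. Hmox1 rose by 0.80 ± 0.14 in HFD against ND livers (limma adjusted p = 0.0027). With the clock score as a covariate the estimate was 0.73 and the adjusted p 0.069. Hmox1 is also made by macrophages, and the summed level of 8 macrophage and Kupffer cell markers moved in the same direction, with 106 to 119 FPKM in ND, 156 to 232 in HFD, 153 to 196 in CLE and 117 to 200 in LU livers. Of the 7 of these markers that were tested, Cd68, Vsig4, Cd5l and Csf1r were higher in HFD than in ND livers. The summed level of 6 erythroid markers moved likewise, from 122 to 165 FPKM in ND livers to 194.5 to 249.1 in HFD livers. The part of these cells in the rise of Hmox1 was not tested.

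Cat encodes catalase, the peroxisomal enzyme that breaks down hydrogen peroxide, and was by far the most abundant of the 10 mRNAs. Cat (ENSMUSG00000027187, chr2:103453849-103485160, minus strand) was at 1117, 1098 and 1132 FPKM in ND livers, 1251, 1206 and 1264 in HFD livers, 1114, 1311 and 1319 in CLE livers, and 1243, 1098 and 1221 in LU livers. The ND and HFD livers did not overlap, but the difference of 0.15, with a 95% interval of -0.09 to 0.40, missed the threshold (limma adjusted p = 0.43). In mean level over the 12 livers, on the FPKM scale that allows for length, Cat at 1198 was followed by Gclc at 117, Gclm at 77.9, Ugdh at 73.8, Txnrd1 at 43.4, Nfe2l2 at 41.6, Srxn1 at 30.7, Keap1 at 19.2, Hmox1 at 12.0 and Nqo1 at 7.57 FPKM. Over the 12 livers, the ranges of neighbours in this order overlapped except between Cat and Gclc, Srxn1 and Keap1, and Keap1 and Hmox1.

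**Figure D2:**
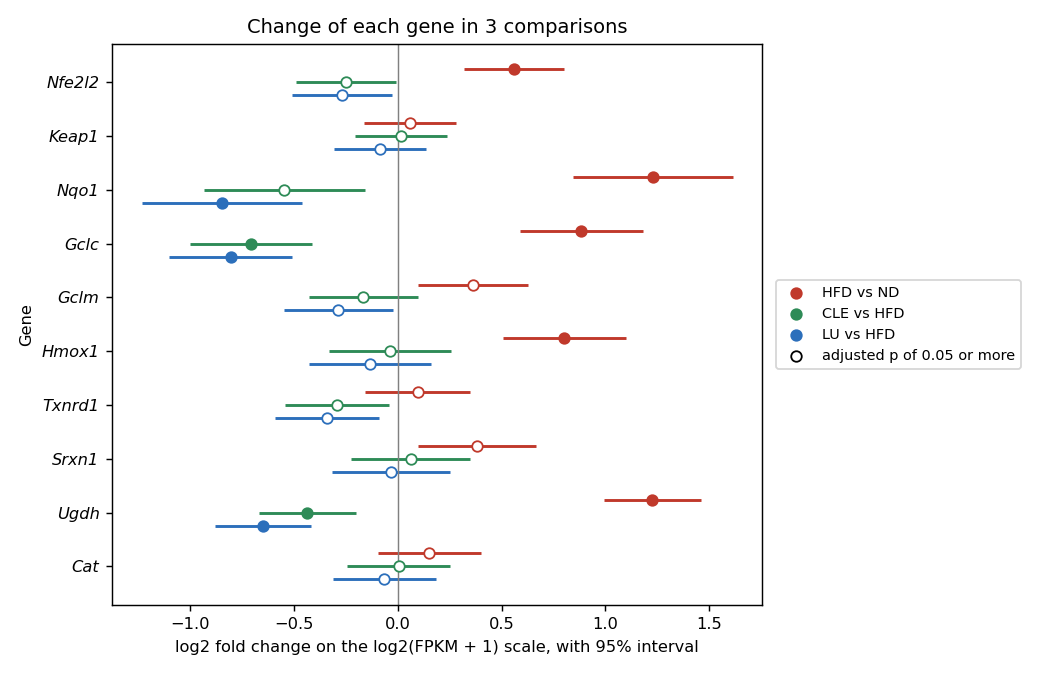
Log2 fold change on the log2(FPKM + 1) scale (horizontal axis) of each gene (vertical axis) for the high-fat diet (HFD against ND) and for each supplement (CLE or LU against HFD), with 95% intervals from limma. Filled points passed an adjusted p of 0.05. The red points of Nqo1 and Ugdh lie at 1.23, and the filled green and blue points of Gclc and Ugdh lie on the other side of 0.

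The next question was whether the genes differed when the extract was added to the high-fat diet. In CLE livers, Gclc and Ugdh fell relative to HFD livers, so 2 of 10 genes passed as lower and none as higher, where 6.02% of all genes passed and 3.28% as lower. Gclc was at a mean ± SD of 105 ± 7.12 FPKM in CLE livers against 172 ± 13.8 in HFD livers, a log2 fold change of -0.71 ± 0.14 with a limma adjusted p of 0.022. This call rested on single livers, since the adjusted p was 0.061 without HFD-12, 0.11 without HFD-15 and 0.077 without CLE-4. Ugdh was at 77.9 ± 5.96 against 106 ± 6.88 FPKM, a log2 fold change of -0.44 ± 0.11 with a limma adjusted p of 0.039. The call for Ugdh was lost in 5 of the 6 fits that left out 1 liver, in which the change ranged from -0.50 to -0.38, and the adjusted p was 0.13 after correction of each library for GC content.

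The other genes did not pass in this comparison. Nqo1 missed the threshold with a log2 fold change of -0.55 ± 0.18 and a limma adjusted p of 0.074, and it passed without CLE-2, at -0.69 and 0.027. Nfe2l2 had a change of -0.25 (adjusted p = 0.16) and Txnrd1 of -0.29 (adjusted p = 0.12). In Nfe2l2, Nqo1, Gclc, Txnrd1 and Ugdh every CLE liver was below every HFD liver, as in 15% of all genes. Hmox1 had a log2 fold change of -0.04 with a 95% interval of -0.33 to 0.26, and Srxn1 of 0.06 with an interval of -0.22 to 0.35. Keap1 and Cat had changes of 0.02 and 0.00, and Gclm of -0.17. The median of the 10 genes was -0.21 against 0.02 for all genes tested.

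The same question was asked of luteolin. In LU livers, Nqo1, Gclc and Ugdh fell relative to HFD livers, 3 of 10 genes, where 1.03% of all genes passed and 0.728% as lower. Nqo1 was at 6.25 ± 2.01 FPKM in LU livers against 11.8 ± 1.42 in HFD livers, a log2 fold change of -0.85 ± 0.18 with a limma adjusted p of 0.043. Gclc was at 99.3 ± 20.2 FPKM, a change of -0.80 ± 0.14 with an adjusted p of 0.017. Ugdh was at 66.9 ± 2.29 FPKM, a change of -0.65 ± 0.11 with an adjusted p of 0.015. The groups did not overlap in these genes or in Txnrd1, which was at 38.7 ± 3.49 against 49.2 ± 3.87 FPKM and had a change of -0.34 (adjusted p = 0.15). LU livers were entirely below HFD livers in 16.9% of all genes.

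These calls, too, rested on few livers. When 1 liver was left out, Nqo1 was past the threshold in 1 of 6 fits, Gclc in 2 of 6 and Ugdh in 3 of 6, while the log2 fold changes stayed between -1.06 and -0.71, between -0.96 and -0.68, and between -0.68 and -0.60, respectively. The livers without which a call was lost were HFD-12, HFD-15, HFD-18, LU-2 and LU-3 for Nqo1, HFD-12, HFD-15, LU-2 and LU-3 for Gclc, and HFD-15, HFD-18 and LU-3 for Ugdh. After the GC correction, Nqo1 and Gclc were still past the threshold, with adjusted p of 0.049 and 0.029, and Ugdh was not (0.082). With the clock score as a covariate none of the 3 passed, with adjusted p of 0.19, 0.073 and 0.053 for Nqo1, Gclc and Ugdh. Hmox1 and Srxn1 again differed little from the HFD livers, with log2 fold changes of -0.14 and -0.03 and 95% intervals of -0.43 to 0.16 and -0.32 to 0.25. All 3 comparisons with the HFD group share the same 3 HFD livers, so they are not independent of each other.

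The extract and luteolin were also compared with each other. Between CLE and LU livers none of the 10 genes passed, and none had an unadjusted p below 0.05, where limma called 1 of 11543 genes (0.00866%) and 4.39% had an unadjusted p below 0.05. Ugdh came nearest, since its 3 CLE livers were above its 3 LU livers, with a log2 difference of 0.21, a 95% interval of -0.02 to 0.45 and an adjusted p of 0.97. Groups did not overlap in 7.08% of all genes. For Nqo1 the difference was 0.30 with an interval of -0.08 to 0.69, and for Gclc it was 0.10 with an interval of -0.20 to 0.39. The upper limits of 0.69 for Nqo1 and 0.45 for Ugdh were as large as the changes of CLE against HFD livers, -0.55 and -0.44. For Gclc the limit of 0.39 was smaller than that change, -0.71. The data thus do not show that both supplements acted alike. The diets held 1.5% of whole extract and 0.003% of luteolin, so these percentages are not matched doses. The paper reports luteolin as one of several flavonoids in the extract. The amount of luteolin that the extract brought into the CLE diet was not worked out here.

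The supplemented groups were also compared with the ND livers. In CLE livers, Nqo1, Hmox1, Srxn1 and Ugdh were higher than in ND livers, 4 of 10 genes, where 27% of all genes passed and 20.9% as higher. Their log2 fold changes were 0.68, 0.76, 0.44 and 0.79, with limma adjusted p of 0.017, 0.0038, 0.028 and 0.0011. The call for Srxn1 was lost in 13 of 21 alternative settings, among them 4 of the 6 fits that left out 1 liver (ND-3, ND-4, CLE-2 or CLE-4) and median-of-ratios scaling of the libraries (0.27, adjusted p = 0.13). In LU livers, Hmox1 and Ugdh were higher, 2 of 10 genes, where 15% of all genes passed and 11.2% as higher, with log2 fold changes of 0.67 and 0.58 and adjusted p of 0.011 and 0.0070. With the clock score as a covariate every one of these calls was lost. The limma adjusted p were then 0.17 for Nqo1, 0.25 for Hmox1, 0.25 for Srxn1 and 0.11 for Ugdh in CLE livers. In LU livers they were 0.57 for Hmox1 and 0.49 for Ugdh. The log2 fold changes in that fit were, in the same order, 0.99, 0.67, 0.62 and 0.77 in CLE and 0.56 and 0.55 in LU livers. The scores of all ND livers lay above those of all CLE and LU livers, so this fit can hardly separate score from group. Over all genes, the calls went from 3120 to 36 in CLE and from 1730 to 17 in LU livers. Gclc differed from ND livers by 0.18 in CLE and 0.08 in LU livers, with 95% intervals of -0.12 to 0.47 and -0.22 to 0.38. Nfe2l2 missed the threshold in both, with 0.31 (adjusted p = 0.054) and 0.29 (0.087). Txnrd1 was the gene with negative estimates against ND livers in both groups, -0.20 and -0.24, and with median-of-ratios scaling it passed as lower in both, at -0.37 with adjusted p of 0.033 and 0.044.

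The way the libraries were scaled bears on all comparisons with ND livers, because the median of all genes lay above 0 in the deposited values. Of the genes called in HFD against ND livers, 82.4% were higher with the values as deposited and 55.1% with median-of-ratios scaling, which shifted the median of all genes from 0.11 to -0.01. In CLE and in LU against ND livers, the share fell from 77.4% to 42.9% and from 74.7% to 40.7%. The same 5 genes of the 10 passed in HFD against ND livers with that scaling, with log2 fold changes of 0.41 for Nfe2l2, 0.66 for Hmox1, 0.73 for Gclc, 1.07 for Ugdh and 1.09 for Nqo1. The estimates of Keap1, Txnrd1 and Cat turned from above to below 0 with it, at -0.09, -0.06 and -0.01, and missed the threshold on both scales. Among all 4 groups, the limma F test passed 5 of the 10 genes, where 24.5% of all genes passed.

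The deposited values are given per transcript, and for several of the genes the split among transcripts differed between groups more than the sum did. In Cat, the leading annotated transcript, which spans the whole gene, held 94.9% to 95.2% of the gene's FPKM in ND livers and 95.6% to 96.3% in HFD livers. It held 92.3%, 26.7% and 64.2% in CLE-2, CLE-4 and CLE-11, and 44.1%, 42.8% and 74.0% in LU-2, LU-3 and LU-8. Most of the rest was assigned to transcripts assembled from the reads, of which one spans chr2:103453849-103467576 and another chr2:103453849-103468959, the 3′ part of this minus-strand gene. The first of these was at 563 FPKM in CLE-4, 266 in LU-2 and 292 in LU-3, and the second at 280 FPKM in CLE-11. The sum for Cat lay between 1098 and 1319 FPKM in all livers, while the leading annotated transcript ranged from 349.6 to 1209 FPKM.

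**Figure D3:**
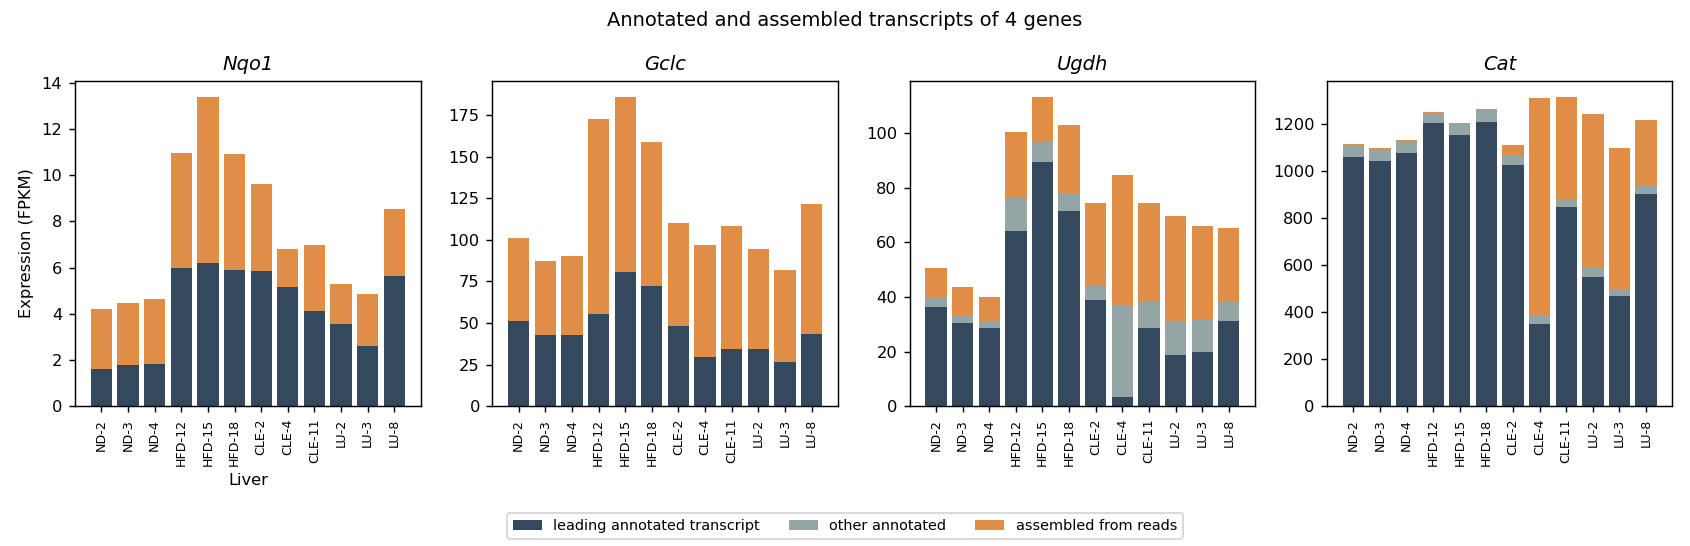
Expression in FPKM (vertical axes, from 0) of the leading annotated transcript, other annotated transcripts and transcripts assembled from the reads of Nqo1, Gclc, Ugdh and Cat, stacked for each of the 12 livers (horizontal axes). In Ugdh and Cat the assembled part is larger in all CLE and LU livers than in the ND and HFD livers.

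Ugdh showed the same kind of split. Its leading annotated transcript (chr5:65413221-65435946) held 70.1% to 72.1% of the gene in ND livers, 63.8% to 78.8% in HFD livers, 4.10% to 52.3% in CLE livers and 26.8% to 47.6% in LU livers. An assembled transcript at chr5:65413202-65436447, whose 5′ end lies outside the annotated gene, held 18.5% to 21.3%, 11.7% to 22.2%, 38.9% to 55.1% and 37.7% to 54.0%. When only the transcript with the highest mean stood for each gene, the log2 fold change of Ugdh in CLE against HFD livers was -2.11 in place of -0.44, and in LU against HFD livers -1.67 in place of -0.65, while the rise in HFD against ND livers was 1.20 and no longer passed (adjusted p = 0.30). It turned to the other side of 0 in both groups against ND livers, at -0.91 and -0.47. The position of Ugdh between the ND and the HFD livers in CLE and LU mice thus holds for the sum over transcripts.

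In Nqo1 the split went the other way. The annotated transcript held 38.4% to 39.6% of the gene in ND livers, 46.2% to 54.5% in HFD livers, 58.8% to 76.0% in CLE livers and 53.9% to 66.9% in LU livers. Gclc was unusual in that an assembled transcript at chr9:77766244-77794485, which lacks the first part of the annotated gene, was its leading transcript, with 49.1% to 52.1%, 53.5% to 66.9%, 54.7% to 67.7% and 62.0% to 66.9% in ND, HFD, CLE and LU livers. With annotated transcripts alone, the difference of Gclc between HFD and ND livers was 0.58 with a limma adjusted p of 0.14, the only one of the 19 settings under which that call was lost. The annotated transcript of Txnrd1 held a smaller share in some supplemented livers, with 87.1% to 91.2% in ND, 83.5% to 87.5% in HFD, 60.3% to 84.0% in CLE and 66.0% to 87.3% in LU livers. Nfe2l2, with no assembled transcript, and Hmox1, with 97.9% in annotated transcripts, had the smallest assembled shares.

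How the genes moved together was described by Pearson's r of log2(FPKM + 1) over the 12 livers, which share the 4 diets, so that the values carry the differences between groups. Nfe2l2 correlated most with Nqo1 (0.92), Gclc (0.87) and Ugdh (0.86), and Nqo1 correlated with Gclc by 0.91. Gclc and Gclm had an r of 0.83, and Hmox1 and Srxn1 also 0.83. Keap1 had values between -0.11 and 0.54 with the other 9 genes, and Txnrd1 between -0.26 and 0.62. Gclc correlated with Hmox1 by 0.48.

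Beyond the 10 genes, 8 lists with 77 other genes of NRF2 signalling and redox defence were examined, of which 72 were tested. These lists were chosen with earlier results of these data known, so their shares beside those of all genes are a description. In HFD against ND livers 23 of the 72 were higher and 1 was lower, which is 33.3% beside 12.1% of all genes, and the median log2 fold change was 0.27 beside 0.11. In CLE against HFD livers none was higher and 6 were lower. This share of 8.33% was near the 6.02% of all genes called in either direction, while 3.28% of all genes were lower. In LU against HFD livers none was higher and 3 were lower (4.17%, beside 1.03% of all genes called and 0.728% as lower). Between CLE and LU livers none passed.

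**Figure D4:**
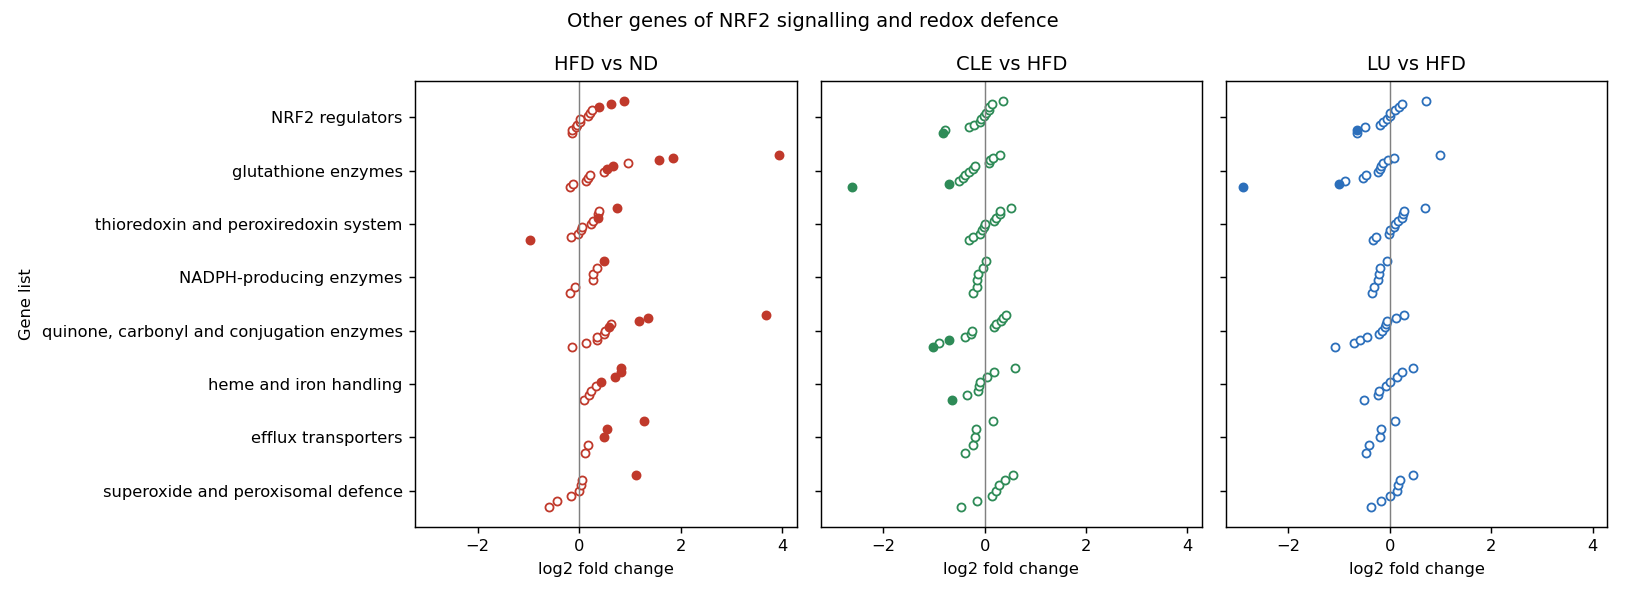
Log2 fold change on the log2(FPKM + 1) scale (horizontal axes) of the tested genes of 8 lists (vertical axis) for the high-fat diet (HFD against ND) and for each supplement (CLE or LU against HFD). Each point is a gene, and filled points passed a limma adjusted p of 0.05. In the left panel 23 filled points lie above 0 and 1 below, and in the other panels the 6 and 3 filled points all lie below 0.

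The glutathione enzymes had 5 of 12 tested genes higher in HFD than in ND livers and none lower. Gstm3 and Gstm1, which encode glutathione S-transferases of the mu class, had the largest changes. Gstm3 was at 2.23, 4.98 and 2.56 FPKM in ND livers, 53.3, 67.3 and 66.9 in HFD livers, 19.2, 4.13 and 9.56 in CLE livers, and 7.40, 3.14 and 16.7 in LU livers. It rose by 3.95 ± 0.50 with the high-fat diet (limma adjusted p = 3.7e-04) and fell by 2.62 with CLE (0.021) and fell by 2.89 with LU (0.017). Gstm1 was at 318 ± 39.8 FPKM in ND, 1153 ± 117 in HFD, 708 ± 21.9 in CLE and 584 ± 125 in LU livers, a rise of 1.86 with the diet (adjusted p = 2.8e-05), and fell by 0.70 with CLE (0.034) and fell by 0.999 with LU (0.013). With sums by M21 gene, the fall of Gstm1 with CLE missed the threshold (-0.60, adjusted p = 0.052). Gsta4 and Gpx3, the secreted glutathione peroxidase, rose by 1.56 and 0.66. Gpx4 was counted as not passing from the sum by name, of which 99.3% came from 1 row. By M21 gene it had a mean of 290 FPKM in place of 40545 and was higher in HFD livers by 0.67 (adjusted p = 0.0087). These transferases have close copies, among which fragments can be shared out, so their values are uncertain.

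Of the quinone, carbonyl and conjugation enzymes, 4 of 11 were higher in HFD livers and none was lower. Cyp2a5, a cytochrome that hydroxylates coumarin and has close copies, was at 41.5 ± 15.1 FPKM in ND, 525 ± 72.5 in HFD, 283 ± 56.7 in CLE and 274 ± 156 in LU livers, a rise of 3.68 ± 0.34 (limma adjusted p = 4.6e-05). Aox1 and Ephx1, which encode aldehyde oxidase and microsomal epoxide hydrolase, rose by 1.35 and 1.18. Ugp2, whose product makes the UDP-glucose on which Ugdh acts, was at 175 ± 30.2 FPKM in ND and 267 ± 8.56 in HFD livers. It was at 139 ± 52.2 FPKM in CLE and 162 ± 12.0 in LU livers, and fell by 1.02 with CLE (limma adjusted p = 0.035). The size of this fall leaned on CLE-4, at 78.8 FPKM beside 172 in CLE-2 and 166 in CLE-11. Nqo2, the relative of Nqo1, rose by 0.60 with the diet (0.018) and fell by 0.71 with CLE (0.025).

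Among the efflux transporters 3 of 5 rose with the high-fat diet, with Abcc3 at 1.28, Abcc4 at 0.54 and Abcc2 at 0.49. Abcc3, which exports glucuronides across the basolateral membrane, was at 55.8 ± 13.9 FPKM in ND, 134 ± 1.97 in HFD, 116 ± 15.3 in CLE and 118 ± 11.8 in LU livers. Of the genes of heme and iron handling 4 of 8 rose, namely Fth1 and Blvrb (both 0.82), Ftl1 (0.70) and Slc48a1 (0.43), which encode the ferritin chains, biliverdin reductase B and a heme transporter. Blvrb was at 52.1 ± 8.23 FPKM in ND, 92.0 ± 9.004 in HFD, 145 ± 54.1 in CLE and 127 ± 7.62 in LU livers, so that, like Hmox1, it was higher than ND in CLE (1.41, limma adjusted p = 0.0014) and in LU livers (1.28, adjusted p = 0.0036). Slc40a1, which encodes the iron exporter ferroportin, fell by 0.64 with CLE (adjusted p = 0.027).

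Of 12 NRF2 regulators, Maff (0.89), Mafk (0.63) and Rbx1 (0.39) rose in HFD livers, of which Maff and Mafk encode small MAF partners of NRF2 and Rbx1 a subunit of the ubiquitin ligase that KEAP1 serves. Nfe2l1, a relative of Nfe2l2, was at 100.1 ± 9.71 FPKM in ND, 102 ± 15.4 in HFD, 57.05 ± 7.41 in CLE and 64.7 ± 3.69 in LU livers, and fell by 0.83 with CLE (limma adjusted p = 0.011) and fell by 0.64 with LU (0.040), while HFD and ND livers differed by 0.02 (adjusted p = 0.93). Of 11 genes of the thioredoxin and peroxiredoxin system, Msra (0.74) and Prdx2 (0.37) rose and Txnip, the inhibitor of thioredoxin, fell by 0.98 from 110 ± 16.9 to 56.6 ± 15.9 FPKM (adjusted p = 0.020). Of 6 NADPH-producing enzymes Taldo1 rose (0.49), and of 7 genes of superoxide and peroxisomal defence Sod3 rose (1.13). Against ND livers, 20 of the 72 genes were higher and 3 lower in CLE livers, and 18 were higher and 2 lower in LU livers, which is 31.9% and 27.8% beside 27% and 15% of all genes.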

How the data were processed

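RNA from the livers of 12 mice was sequenced as paired reads, and the submitters' processing notes name CASAVA 1.8.2, TopHat2 2.0.12 with Bowtie2 2.2.3, and Cufflinks 2.2.1. The authors deposited FPKM values per transcript, in a table that gives 30 as the number of samples of the assembly. Whether scaling factors were applied is not stated, and neither is the genome build. Of the annotated transcripts found in GENCODE M21 on GRCm38, 87.62% had the same start and end there, and M21 gave identifiers and coordinates. The sample titles call the CLE group CLL. Cufflinks shares fragments among transcripts, so depth is unknown and no counting interval is given, and 0 can be a failed estimate.

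Values were summed by gene name, letter case ignored, and 6316 transcripts without a name were left out. The comparisons were made on log2(FPKM + 1) with limma 3.58.1 under R 4.3.3, so changes of low genes are understated, with the variance trend, all 12 mice in one fit, and Benjamini-Hochberg adjustment over the 11543 genes whose mean reached 0.5 FPKM. The code was tested on simulated data. Alternatives were a pseudocount of 0.1, no filter or a mean of at least 5 FPKM, no variance trend, other scalings, the 2 groups alone, other choices of transcripts, a clock-gene covariate, each mouse left out and a block for mouse numbers. Sums by M21 gene and corrections for GC content and length were added after seeing the data. Marker sums use M21 genes. The genes, lists and markers were chosen with earlier results of these data known. Named from the lists are up to 4 genes per list and comparison with the largest change among those past the threshold. This rule was used for HFD against ND livers and for CLE and LU against HFD livers. Blvrb in CLE and LU against ND livers, Ugp2 where it did not pass, Gpx4, albumin and marker genes fall outside it. They were chosen with their values known.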

Additional observations from a re-analysis of the deposited data

How the results depend on the processing

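With 3 livers in a group and depth unknown, calls near the threshold were the least stable. Leaving out each mouse in turn, the number of the 10 genes called ranged from 5 to 6 in HFD against ND, 0 to 3 in CLE against HFD, 0 to 3 in LU against HFD, 3 to 4 in CLE against ND, 2 to 2 in LU against ND, 0 to 0 in CLE against LU and 4 to 6 among the 4 groups. In HFD against ND livers the other alternatives gave 4 to 6 genes. In CLE against HFD livers, 1 gene was called in place of 2 with the 2 groups alone, without a filter on low values, with the clock score as a covariate, after GC correction and after length and GC correction, and 0 when the highest-mean transcript stood for each gene. In LU against HFD livers, 0 in place of 3 were called with the clock score and with the highest-mean transcript. Against ND livers, the clock score left 0 genes in CLE in place of 4 and 0 in LU in place of 2. The scores of the ND livers did not overlap those of either group. The settings also differ in degrees of freedom and in the number of genes tested, and the cause of these losses was not tested.

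Among the differences that had passed the test, the direction turned in 4 cases. With the highest-mean transcript, Srxn1 in CLE against ND livers was at -0.033, and Ugdh was at -0.91 in CLE and -0.47 in LU against ND livers. With annotated transcripts alone, Ugdh in LU against ND livers was at -0.040. Over all genes and without counting the fits that left out a mouse, the number called ranged from 313 to 1837 around 1400 in HFD against ND, from 95 to 1064 around 695 in CLE against HFD, from 45 to 272 around 119 in LU against HFD, from 36 to 3210 around 3120 in CLE against ND and from 17 to 2019 around 1730 in LU against ND. With each mouse left out in turn, these ranges were 659 to 1135, 28 (without HFD-15) to 2187 (without CLE-2), 11 (without LU-3) to 211 (without LU-8), 1598 to 3682 and 640 to 1086.

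Some mouse numbers were shared between groups, and the deviations of same-numbered livers correlated between -0.26 and 0.18. Whether these numbers pair the livers was not tested, since differently numbered livers were not set beside them. With the replicate block, 7 mice and 2 residual degrees of freedom, 0 of the 10 genes were called in CLE against ND and 0 in LU against ND. The same 7 mice without the block gave 3 and 0. HFD mice shared no number with the others and CLE and LU mice shared 1, so no paired fit was made there.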

Other observations

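Outside the 10 genes, those whose expression was most like that of Nqo1 over the 12 livers, by Pearson's r of log2(FPKM + 1), were Abcb1a (0.97), Mthfd1l (0.96), Fmo5 (0.96), Slc16a7 (0.96) and the glutathione S-transferase Gstm3 (0.95). Fmo5, a flavin monooxygenase, had group means of 226 FPKM in ND, 482 in HFD, 318 in CLE and 310 in LU livers. Slc16a7, a monocarboxylate transporter, had 28.7, 72.0, 42.3 and 41.9 FPKM, and Abcb1a, an efflux pump, 0.486, 1.98, 1.04 and 1.07 FPKM. All 3 were highest in the HFD group, as Nqo1 was. Among the genes most like Nfe2l2 were Tm4sf4 (0.96), Selenof, whose name the table held as a date (0.95), Pmpcb (0.95) and again Slc16a7 (0.95). Tm4sf4 had group means of 53.2 FPKM in ND, 124 in HFD, 92.6 in CLE and 101 in LU livers. These values describe 12 livers that share 4 diets.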
